A study of Mus musculus with 22 samples.

Results

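Cortical layer and projection neuron markers are genes whose RNA is concentrated in excitatory neurons of 1 or a few cortical layers. 37 such gene names were taken from the table of gene counts, of which 35 had a row among 37786 genes, and all 35 passed the minimum of 10 counts in at least 10 mice that left 17524 genes for testing. Calb2os and Cplx3os had no row and are not analysed here. Of the 35, 10 were assigned to layers 2 to 4, 8 to layer 5, 11 to layer 6 and the subplate, and 6 to no single layer. These lists are working assignments: layers were not measured here, and a member such as Mef2c need not be confined to the layers of its list. The rule that names them uses no measured value, but the members were chosen with earlier results of these data known.

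Bulk RNA was sequenced from the anterior cingulate cortex (ACC) of male wildtype C57BL/6J mice, 12 control and 10 stimulated, to ask which transcripts differ after repeated activation of the input from the basolateral amygdala (BLA) to the ACC. Mice of both groups were 8 weeks old at the start, carried AAV5-CaMKIIa-ChR2(H134R)-EYFP in the BLA of both hemispheres and an optic fiber cannula in the ACC of 1 hemisphere, and were housed singly after implantation. Stimulated mice received 9 sessions of blue light, on 3 consecutive days a week for 3 weeks, and in controls the light stayed off. ACC tissue of both hemispheres was collected 48 h after the last session, so each value averages the hemisphere with the fiber and the one without it, and in bulk tissue fewer cells of a type and less RNA per cell cannot be told apart. The CaMKIIa promoter restricts the opsin mainly to excitatory BLA neurons, and the opsin is carried by their axons in the ACC, not by the ACC neurons that express the genes described here.

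Neurons of the neocortex are stacked in layers that differ in birth date, input and target. Layers 2 to 4 hold neurons that project within the cortex and layer 4 neurons that receive thalamic input. Layer 5 holds neurons that project to the brainstem, spinal cord and striatum, and layer 6 holds neurons that project back to the thalamus, with remnants of the subplate beneath them. In mice the ACC lacks a distinct layer 4. Transcription factors such as Cux1 and Cux2 (upper layers), Fezf2 and Bcl11b (layer 5) and Tbr1 and Tle4 (layer 6) specify these identities during development and continue to be expressed in adults.

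Library numbers fell into a run from 1 to 11 (6 control and 4 stimulated mice) and a run from 12 to 23 (6 and 6), with no library 7. The study used 2 cohorts of animals, but the labels do not state whether the runs are those cohorts. Total counts ranged from 23090483 to 43668462. Pan-excitatory markers were present in every mouse, with Slc17a7, the vesicular glutamate transporter of cortical excitatory neurons, at 1137 to 2963 CPM (counts scaled to library size). Controls 9 and 11 stood apart, with summed CPM of 10 oligodendrocyte markers of up to 19860, against at most 6334 in the other controls and 5849 in the stimulated mice. The opsin is not among the annotated genes, so the labels were not checked against a targeted gene. In each of the 111 pairs of mice within a group, counts differed by at least 11.7 times the sampling variance, so no pair was taken as 1 library.

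Promoter windows are given for 4 members on which the results below turn: Pcp4, with the highest level per length; Pou3f3, lower than the control median of its run in every stimulated mouse; and Cux2 and Rprm, which differed between the runs in opposite directions. Each window is the 250 bases before the RefSeq start on the coding strand, 5′ to 3′ (build GRCm38.p6), with CG dinucleotides, the sites of DNA methylation in mammals, in capitals. The first listed start of Cux2 is shown. The windows lie at chr16:96467356-96467605 (plus strand) for Pcp4, chr1:42695518-42695767 (plus strand) for Pou3f3, chr5:122049852-122050101 (minus strand) for Cux2 and chr2:54085553-54085802 (minus strand) for Rprm.
Pcp4: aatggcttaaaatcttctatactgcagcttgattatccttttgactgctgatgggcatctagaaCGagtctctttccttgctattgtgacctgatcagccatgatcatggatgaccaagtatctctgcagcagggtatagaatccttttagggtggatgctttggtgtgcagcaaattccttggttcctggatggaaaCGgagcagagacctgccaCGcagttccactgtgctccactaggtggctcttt
Pou3f3: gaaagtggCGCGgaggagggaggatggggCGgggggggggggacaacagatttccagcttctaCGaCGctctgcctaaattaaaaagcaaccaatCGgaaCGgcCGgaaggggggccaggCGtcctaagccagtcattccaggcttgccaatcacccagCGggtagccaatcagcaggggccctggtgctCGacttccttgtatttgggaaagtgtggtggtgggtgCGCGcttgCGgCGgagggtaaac
Cux2: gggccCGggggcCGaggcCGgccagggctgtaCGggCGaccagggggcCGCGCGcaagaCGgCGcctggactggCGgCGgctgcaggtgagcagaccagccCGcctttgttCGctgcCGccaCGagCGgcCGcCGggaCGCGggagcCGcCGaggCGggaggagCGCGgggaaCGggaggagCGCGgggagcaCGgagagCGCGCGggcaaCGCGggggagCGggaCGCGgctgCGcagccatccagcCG
Rprm: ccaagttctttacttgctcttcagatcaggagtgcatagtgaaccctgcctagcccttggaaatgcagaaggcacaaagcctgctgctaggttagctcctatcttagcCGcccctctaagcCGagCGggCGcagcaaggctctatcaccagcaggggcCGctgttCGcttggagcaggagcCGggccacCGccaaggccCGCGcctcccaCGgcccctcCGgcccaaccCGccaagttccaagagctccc
The Pcp4 window held 3 CG dinucleotides, that of Pou3f3 15, that of Cux2 40 and that of Rprm 13, beside a median of 6 over the 32851 windows in the table. RefSeq windows were at hand for 26 members, 41 in all with alternative starts, and their median was 13. Over both strands, the TATA box letters TATAAA occurred in 12.2% of member windows and 12.4% of all windows, the CCAAT letters in 31.7% and 33.8%, and the GC box letters GGGCGG in 43.9% and 32.7%. These are counts of letters and no test was made.

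Levels of the members were compared per kilobase of the union of their exons, over all 22 mice. Pcp4, a small calmodulin-binding protein known from layer 5 subcerebral neurons, was highest at 100.5 ± 31.2 CPM per kilobase (SD, n = 22). Mef2c, an activity-regulated transcription factor, followed at 53.8 ± 11.7. Crym, a thyroid hormone-binding protein of layer 5, stood at 53.1 ± 18.5. Rprm, which marks layer 6 corticothalamic neurons, stood at 50.02 ± 24.0, and Ldb2, a cofactor of LIM-domain transcription factors in layer 5, at 42.0 ± 7.0. The SDs include the difference between the runs and the order of Mef2c, Crym, Rprm and Ldb2 was not tested and differed by run. In libraries 1 to 11 Crym (69.9 CPM per kilobase) and Rprm (68.8) stood above Mef2c (58.5), and in libraries 12 to 23 Sulf2 (34.9) stood at the level of Rprm (34.4). Pcp4 was highest in both runs. With the longest transcript as the length, Pcp4 stood at 161 CPM per kilobase and Mef2c at 135, against 67.2 for Crym, 54.0 for Ldb2 and 50.02 for Rprm.

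Of the 5 lowest members 3 were of layer 6 and the subplate. Nxph4, a neurexophilin of the subplate, was at 0.62 ± 0.23 CPM per kilobase (SD, n = 22). Foxp2, a forkhead factor of layer 6, was at 0.72 ± 0.30 and Nr2f2, a nuclear receptor (COUP-TFII) also used by interneurons, at 0.77 ± 0.16. These 3 lay within each other's spread by exon length, but by the longest transcript Foxp2 stood at 1.74 and Nr2f2 at 1.56, above Nxph4 at 0.62. Ntsr1, the neurotensin receptor of corticothalamic cells, was at 1.60 ± 0.53. Trh, the precursor of thyrotropin-releasing hormone, was at 1.78 ± 1.20 and had as few as 12 counts in 1 mouse. The lowest count of Nxph4 was 13, and that of every other member was 90 or more, so the precision of Trh and Nxph4 is limited by depth in single mice.

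The plot of all members by mouse shows the largest contrast between the runs rather than between the groups.

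**Figure D1:**
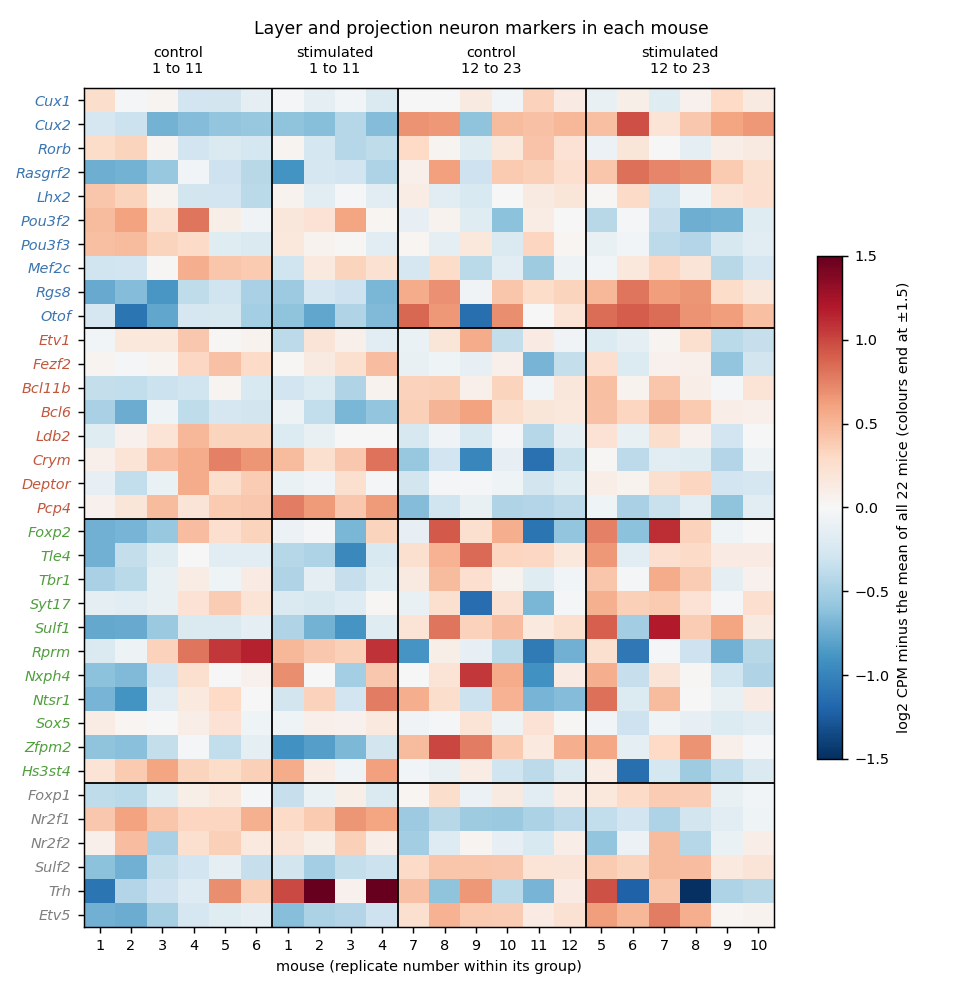
Log2 CPM of each of the 35 members (rows, coloured by layer list: blue layers 2 to 4, red layer 5, green layer 6 and subplate, grey not tied to 1 layer) in each of the 22 mice (columns, by group and run of library numbers), as the difference from the gene's mean over all mice. Cux2, Rgs8 and Otof are higher and Crym, Pcp4 and Nr2f1 lower in libraries 12 to 23, and control 9 departs from its run in Cux2, Otof and Syt17.

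Stimulation was tested with the run as a covariate (edgeR quasi-likelihood test, Benjamini-Hochberg adjustment over all 17524 genes). At an unadjusted p under 0.05, 2015 genes (11.5%) differed, and 0 did after adjustment; of DESeq2 and limma-voom, run as alternatives, DESeq2 called 33 genes and limma-voom 1. Among the members 6 of 35 (17.1%) had an unadjusted p under 0.05, 2 higher and 4 lower in stimulated mice, beside 6.05% of all genes higher and 5.45% lower, and 0 passed after adjustment (smallest adjusted p = 0.349). Without the run in the model, 1 of 35 members and 632 genes had an unadjusted p under 0.05. The median log2 fold change of the members was 0.04, beside 0.01 over all genes, and the median absolute value was 0.12 beside 0.10. By direction alone, 22 of 35 members (62.9%) had a positive fold change, beside 52.6% of all genes. The tally differed in other fits: 14 of 35 were positive with the mitochondrial share as a further covariate (40.0%, beside 54.5% of all genes), 15 within libraries 1 to 11 (42.9%, beside 51.2%) and 18 without controls 9 and 11 (51.4%, beside 54.2%). No member therefore met the adjusted threshold for a stimulation difference, and the 6 below are described by their values.

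Zfpm2 (chr15:40655035-41104592), a zinc-finger cofactor of GATA factors expressed in corticothalamic neurons, had the smallest unadjusted p. Among libraries 1 to 11 the 6 controls spanned 19.4 to 29.2 CPM (median 23.2), and the 4 stimulated mice were at 15.9, 16.8, 18.7 and 24.6. Among libraries 12 to 23 the controls spanned 33.0 to 60.2 (median 42.6) and the stimulated mice 27.1 to 47.8 (median 34.2). The groups overlapped in both runs, and 7 of 10 stimulated mice were below the control median of their run. The log2 fold change was -0.31 ± 0.11 (SE; edgeR unadjusted p = 0.0115, adjusted p = 0.349).

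Pou3f3 (chr1:42695768-42703176), a POU-domain factor (Brn1) of upper-layer neurons, was below the control median of its run in all 10 stimulated mice. Its control values in libraries 1 to 11 spanned 33.3 to 54.2 CPM (median 48.1), and the stimulated mice were at 43.2, 40.4, 39.4 and 34.7. Its control values in libraries 12 to 23 spanned 33.4 to 48.5 (median 39.7), against 28.5 to 37.8 (median 33.7) after stimulation. The ranges overlapped in both runs because some controls were as low as the stimulated mice. The log2 fold change was -0.23 ± 0.09 (SE; edgeR unadjusted p = 0.0127, adjusted p = 0.353). Its paralog Pou3f2 (Brn2) had a log2 fold change of -0.20 ± 0.11 with an unadjusted p of 0.085 in the same edgeR fit.

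Pcp4 (chr16:96467606-96525793) was the higher member with the smallest p. In libraries 1 to 11, the control range was 103.5 to 137 CPM (median 121) and the stimulated mice were at 168, 154, 131 and 154, so 3 of the 4 were above every control. In libraries 12 to 23, the control range was 62.9 to 91.6 (median 73.9) and that of stimulated mice 65.0 to 94.5 (median 82.7). The difference lay mainly in the earlier libraries, with a log2 fold change of 0.34 within libraries 1 to 11 and 0.06 within 12 to 23, although the difference between the 2 (-0.24, edgeR unadjusted p = 0.127) did not pass. Over both runs the log2 fold change was 0.20 ± 0.08 (SE; edgeR unadjusted p = 0.0165, adjusted p = 0.360), and 8 of 10 stimulated mice were above the control median of their run. Exons of Pcp4 share 243 of 1026 bases with Igsf5, so reads there could be assigned to neither gene or the other one.

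Nr2f1 (chr13:78188973-78199757), a nuclear receptor (COUP-TFI) that sets cortical area identity, had the other positive difference. Controls of libraries 1 to 11 held 29.0 to 35.3 CPM (median 30.8) and the stimulated mice were at 28.4, 30.4, 36.8 and 35.0. Controls of libraries 12 to 23 held 15.8 to 17.7 (median 16.4) and stimulated mice 16.8 to 22.2 (median 19.1). The shift between runs was several times the shift between groups. The log2 fold change was 0.14 ± 0.06 (SE; edgeR unadjusted p = 0.0303, adjusted p = 0.392). Without the run in the model the unadjusted p of Nr2f1 was 0.840.

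Rorb (chr19:18930605-19111196), a nuclear receptor of layer 4 type neurons, had a negative log2 fold change, -0.19 ± 0.09 (SE; edgeR unadjusted p = 0.0413, adjusted p = 0.416). For libraries 1 to 11 the controls lay between 32.1 and 49.5 CPM (median 37.01) and the stimulated mice were at 40.2, 32.7, 29.0 and 30.2. For libraries 12 to 23 the controls lay between 34.5 and 52.6 (median 44.6) and the stimulated mice between 35.7 and 44.6 (median 40.4). The groups overlapped in both runs, with 8 of 10 stimulated mice below the control median. Leaving out any of 12 of the 22 mice moved its unadjusted p to 0.05 or more.

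Tle4 (chr19:14448150-14598051), a Groucho-family corepressor of layer 6 corticothalamic neurons, stood lower by log2 fold change, -0.21 ± 0.10 (SE; edgeR unadjusted p = 0.0486, adjusted p = 0.431). The earlier controls lay between 44.7 and 74.0 CPM (median 65.4) and the stimulated mice were at 55.0, 53.7, 37.7 and 63.0. The later controls lay between 82.4 and 132.7 (median 92.2) and the later stimulated mice between 66.0 and 116.5 (median 84.1). Of the 10 stimulated mice 9 were below the control median of their run. Leaving out any of 14 mice moved its unadjusted p to 0.05 or more.

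**Figure D2:**
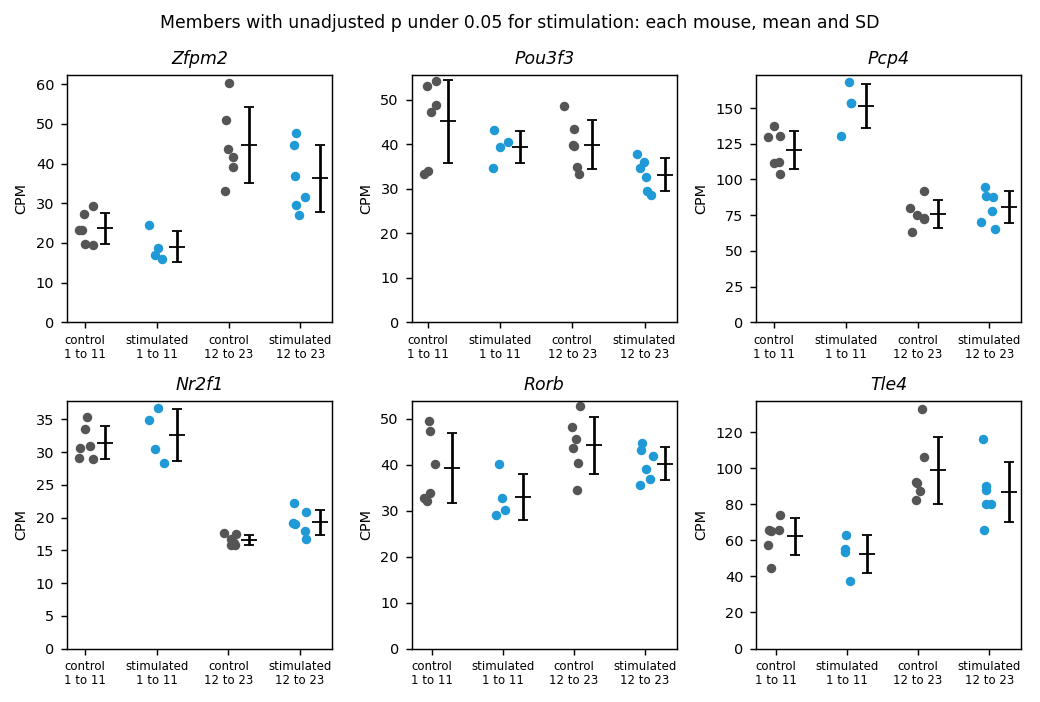
CPM (vertical axes, from 0) of the 6 members with an unadjusted p under 0.05 for stimulation, with 1 point per mouse by group and run of library numbers and the mean and SD of each set beside the points. The sets of control and stimulated mice overlap within each run for all 6 members.

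Of the 4 lower members, 2 belonged to layers 2 to 4 (Pou3f3 and Rorb) and 2 to layer 6 (Zfpm2 and Tle4), while of the 2 higher ones Pcp4 belonged to layer 5 and Nr2f1 to no single layer. Etv1, a layer 5 ETS factor, with an unadjusted p of 0.0512, and Sox5, which restrains subcerebral fate in layer 6, with 0.0526, lay just outside the threshold in the edgeR fit, both with negative differences. Without controls 9 and 11, Etv1 moved from -0.20 to -0.11 (edgeR unadjusted p = 0.236) and Sox5 from -0.12 to -0.06 (unadjusted p = 0.322), and the difference of Sox5 was 0.004 within libraries 1 to 11 and -0.24 within 12 to 23. Markers of the oligodendrocyte moved with the groups, all 10 lower in stimulated mice at an unadjusted p under 0.05 with a median log2 fold change of -0.69. This lay in libraries 12 to 23, where all 10 were lower (median -1.31), while in libraries 1 to 11 the median was 0.04, 6 were higher and none had an unadjusted p under 0.05. Without controls 9 and 11 that median was -0.11 and 1 of the 10 was lower at that threshold. Without them the member log2 fold changes were -0.33 for Zfpm2, -0.17 for Pou3f3, 0.25 for Pcp4, 0.14 for Nr2f1, -0.19 for Rorb and -0.16 for Tle4, and 3 of 35 members (Zfpm2, Pcp4 and Rorb) kept an unadjusted p under 0.05 in edgeR, beside 8.16% of all genes (1430 of 17524). The mitochondrial share of counts also differed by group in libraries 12 to 23, with medians of 1.51% in controls and 1.05% in stimulated mice (2.52% and 2.21% in libraries 1 to 11). With that share as a further covariate, Rorb moved to -0.08 (edgeR unadjusted p = 0.189) and Pou3f3 to -0.14 (unadjusted p = 0.0578), while Lhx2, a LIM homeobox factor (0.13, unadjusted p = 0.0376), Etv1 (-0.23, unadjusted p = 0.0254) and Sox5 (-0.13, unadjusted p = 0.0391) came under 0.05. That fit had 7 of 35 members under 0.05 in all, beside 10.6% of all genes. Lhx2 and Sox5, outside the rule for named members, are given here after their values were seen. The part of oligodendrocyte RNA in the member values was not tested.

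**Figure D3:**
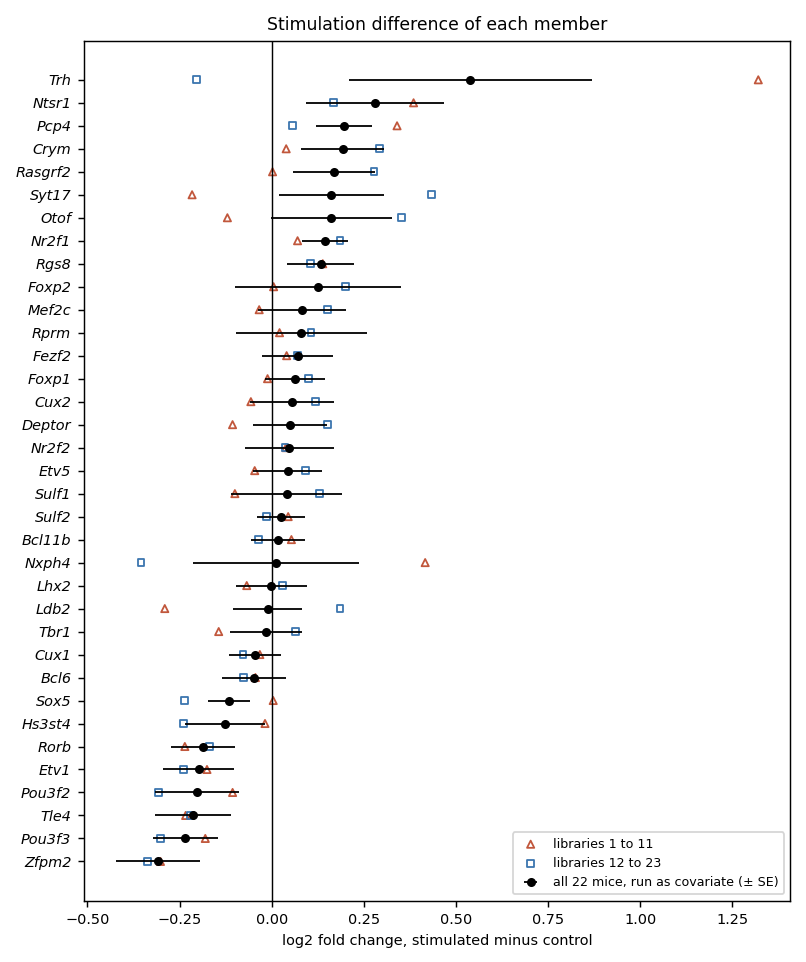
Log2 fold change of each member (horizontal axis, stimulated minus control) with the run as a covariate (black, bars ± SE), and within libraries 1 to 11 (triangles) and 12 to 23 (squares). Estimates run from -0.31 for Zfpm2 to 0.54 for Trh, and 16 of the 35 members have opposite signs in the 2 runs, Trh, Nxph4, Ldb2 and Syt17 among them.

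Within libraries 1 to 11 alone, 3 members (Ldb2, Pcp4 and Trh) had an unadjusted p under 0.05 in edgeR, beside 5.56% of all genes. Within libraries 12 to 23 alone, 6 did (Pou3f2, Pou3f3, Syt17, Sox5, Zfpm2 and Nr2f1), beside 12.4%. Pou3f2, Syt17 and Sox5 are named here after their values were seen. Whether stimulation differed between the runs was tested as an interaction. At an unadjusted p under 0.05, 1403 genes (8.01%) and 3 of 35 members differed, and 0 genes after edgeR adjustment (DESeq2 called 2). The 3 members, named after their values were seen, were Ldb2, Syt17 and Trh. Ldb2 was lower in stimulated mice of libraries 1 to 11 (log2 fold change -0.29) and higher in those of 12 to 23 (0.18), an interaction of 0.52 with an unadjusted p of 0.00256 in edgeR. Syt17, a synaptotagmin of layer 6, went from -0.22 to 0.43 (interaction 0.70, edgeR unadjusted p = 0.0105). Control 9, at 58.8 CPM of Syt17, was the lowest mouse of its run, and without controls 9 and 11 the stimulation estimate of Syt17 over both runs was -0.01. Trh went from 1.32 to -0.20 (interaction -1.47, edgeR unadjusted p = 0.0228). In libraries 1 to 11, its stimulated mice were at 4.09, 6.195, 2.12 and 6.97 CPM and its controls at 0.92 to 3.32.

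The difference between the runs was larger than that of stimulation. With the group as a covariate, 11927 of 17524 genes (68.1%) differed at an adjusted p under 0.05 in edgeR, and 24 of 35 members (68.6%), 15 higher in libraries 12 to 23 and 9 lower, a share near that of all genes. In all genes, 33.7% were higher and 34.3% lower. By layer, 6 members of layers 2 to 4 rose and 2 fell, 2 of layer 5 rose and 3 fell, 4 of layer 6 rose and 2 fell, and 3 of those tied to no layer rose and 2 fell. Of 9 general excitatory neuron markers, Tbr1 among them, 4 rose and 3 fell, and the 4 oligodendrocyte progenitor markers all rose, with a median log2 difference of 1.46. The mitochondrial share of counts ran from 1.63 to 4.81% in libraries 1 to 11 and from 0.982 to 1.90% in 12 to 23. The part of these markers and of that share in the member values was not tested, and what sets the runs apart is not given in the labels.

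The 5 largest run differences belonged to layers 2 to 4 and layer 6. Otof, otoferlin, a calcium sensor of vesicle fusion that marks a set of upper-layer neurons, went from 7.43 to 13.4 CPM (median 10.8) in libraries 1 to 11 to 7.24 to 29.9 (median 25.1) in 12 to 23. Its log2 difference was 1.06 ± 0.17 (SE; edgeR adjusted p = 3.99e-06). Control 9, at 7.24, was below the earlier range, and every other mouse of the later run was above it.

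Cux2, a homeobox factor of layers 2 to 4, ranged from 46.7 to 64.1 CPM (median 50.5) in libraries 1 to 11 and from 50.04 to 149.4 (median 107.0) in 12 to 23. The log2 difference was 1.02 ± 0.12 (SE; edgeR adjusted p = 2.05e-08), and control 9, at 50.04, was again the exception, the other 11 mice of that run being at 88.1 or more. The Cux2 promoter window shown above was the richest in CG of the 4 printed. Cux1, its paralog, differed by 0.16 ± 0.07 (edgeR adjusted p = 0.0477), with medians of 74.7 and 83.6 CPM.

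Rprm fell by 1.01 on the log2 scale (SE 0.18; edgeR adjusted p = 1.73e-05), from 56.4 to 146.7 CPM (median 89.9) in libraries 1 to 11 to 31.2 to 77.4 (median 49.3) in 12 to 23. Rgs8, a regulator of G protein signalling, rose by 0.95 ± 0.09 (edgeR adjusted p = 1.31e-09) and its ranges of 30.8 to 47.8 and 54.5 to 99.2 CPM did not overlap. Sulf1, a heparan sulfate 6-O-endosulfatase of layer 6, rose by 0.93 ± 0.15 (edgeR adjusted p = 6.92e-06), from a median of 13.7 to 25.0 CPM. In 7 of 35 members (20.0%) the ranges of the runs did not overlap, beside 26.1% of all genes. Without control 9, chosen after the data were seen, this held for 10 members and 27.1% of genes, adding Cux2, Rasgrf2 and Otof, all of layers 2 to 4.

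**Figure D4:**
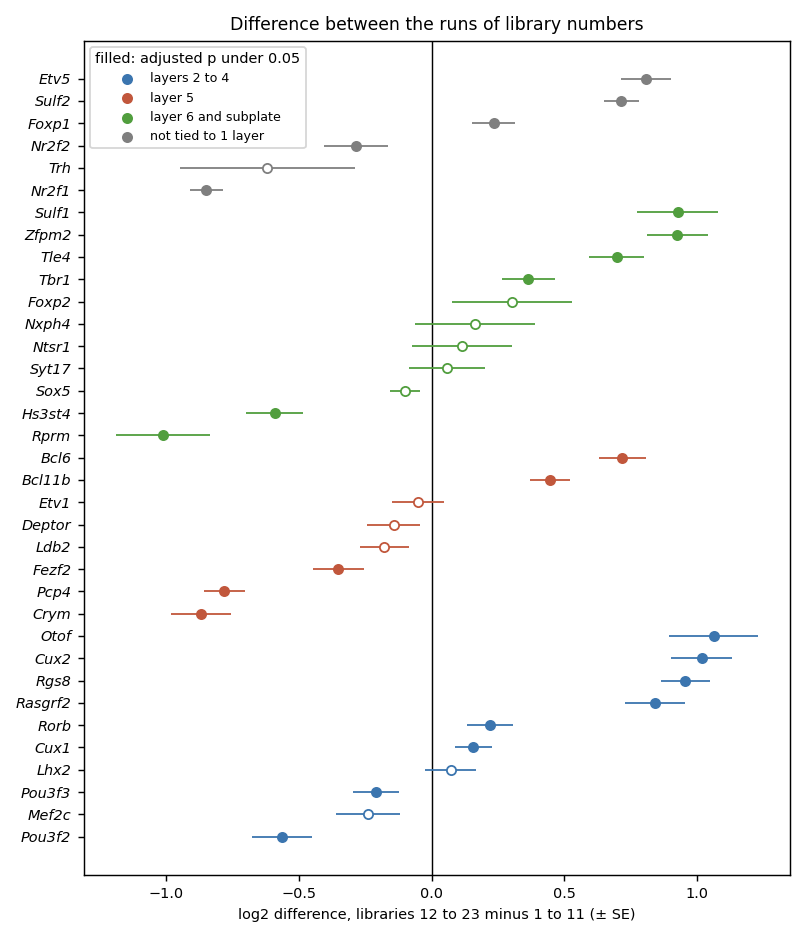
Log2 difference of each member between libraries 12 to 23 and 1 to 11 (horizontal axis, bars ± SE), ordered within the layer lists, with filled points at an adjusted p under 0.05. Within each list some members rose and others fell, from -1.01 for Rprm to 1.06 for Otof.

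Paralogs did not always share a run difference. Pou3f2 and Pou3f3 both fell, by 0.56 and 0.21 on the log2 scale, and Sulf1 and Sulf2, another sulfatase, both rose, by 0.93 and 0.71. Etv5, an ETS factor that growth factor signalling induces, rose by 0.81 (edgeR adjusted p = 3.20e-08), whereas Etv1 stood at -0.05 (adjusted p = 0.654). Nr2f1 and Nr2f2 both fell, by 0.85 and 0.28. Foxp1, a forkhead factor of several layers, rose by 0.23 (edgeR adjusted p = 0.0145), and Foxp2 stood at 0.30 ± 0.23 (adjusted p = 0.241).

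Among mice of the same run, with group means removed, the correlation of log2 CPM within 6 paralog pairs was computed in each run, 12 relations in all. The strongest was that of Sulf1 and Sulf2 in libraries 1 to 11, with Pearson's r = 0.728 (permutation p = 0.0229, adjusted p = 0.218, n = 10), Spearman's rho = 0.661 (permutation p = 0.0415) and r = 0.872 without the 2 mice farthest from the median of Sulf1. Pou3f2 and Pou3f3 had r = 0.685 in libraries 1 to 11 (permutation p = 0.0677, n = 10; rho = 0.576, permutation p = 0.145; r = 0.914 without the 2 farthest mice). In libraries 12 to 23 they had r = 0.613 (permutation p = 0.0468, adjusted p = 0.218, n = 12). There rho was 0.622 (permutation p = 0.0434), and r was 0.281 without the 2 farthest mice of that run. The part of the narrower range in this change was not tested. None of the 12 passed at an adjusted p under 0.05, and the smallest adjusted p was 0.218.

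Layer scores were formed as the mean, over the members of a layer list, of log2 CPM less the mean of all mice. With the run as a covariate the stimulated minus control difference was 0.01 for layers 2 to 4, 0.04 for layer 5 and -0.002 for layer 6. For comparison the SD between control mice of libraries 12 to 23 was 0.20, 0.13 and 0.28. The layer balance, the upper score less the mean of both deep scores, differed by -0.01 between the groups, with SDs of 0.31 in the controls and 0.31 in the stimulated mice of that run. These differences were smaller than the spread between mice, and no test was made on the scores. In libraries 12 to 23 the upper score was higher by 0.33 and the layer 6 score by 0.15, while the difference of the layer 5 score was -0.15.

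**Figure D5:**
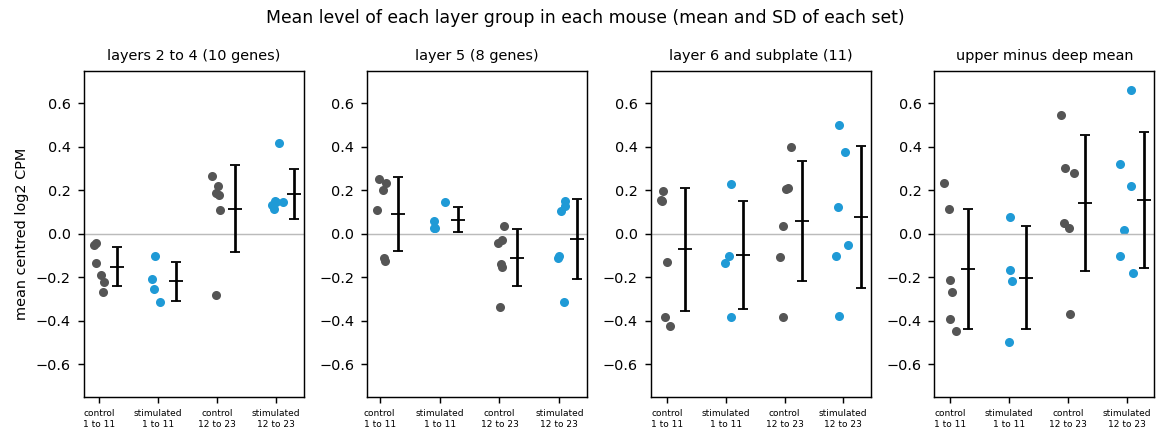
Mean centred log2 CPM of the members of each layer list, and the upper score less the mean of the deep scores, with 1 point per mouse by group and run of library numbers and the mean and SD of each set. Control and stimulated mice overlap in every panel, and the control at -0.28 in the first panel of libraries 12 to 23 is control 9.

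Layer 6 members varied most between mice of the same group and run. Their SD of log2 CPM within a group and run had a median of 0.334 over the 11 members, beside 0.261 for layers 2 to 4, 0.228 for layer 5 and 0.246 over all genes. Foxp2 (0.613), Nxph4 (0.493), Ntsr1 (0.491) and Rprm (0.482) led among them, and Sox5 (0.108) had the smallest SD of all members. Trh, at 0.805, was the most variable member. Foxp2, Nxph4, Ntsr1 and Trh were among the 5 lowest members per kilobase. Their median counts per mouse were 372, 31, 186 and 60, whereas that of Rprm was 2019. The part of low level in these SDs was not tested.

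Within a mouse the layer 6 members stood on the same side of the run median in several cases. All 11 were above it in stimulated mouse 5 and in control 8, with layer 6 scores of 0.50 and 0.40, and 10 of 11 were above it in controls 4, 5 and 6 and stimulated mouse 4, with scores of 0.15 to 0.23. None was above it in stimulated mouse 3 and 1 of 11 in controls 1 and 2 and stimulated mice 6 and 9, with scores from -0.42 in control 1 to -0.10 in stimulated mouse 9. Foxp2, for example, was at 20.6 CPM in control 8 and 18.4 in stimulated mouse 5, and at 7.10 in stimulated mouse 6 and 6.73 in stimulated mouse 3. Members of layer 5 also stood together in single mice. All 8 were above the run median in control 8 and stimulated mouse 7, and 0 of 8 in control 1 and stimulated mouse 9. Mice with high and low layer 6 values occurred in both groups. These counts, taken after the values were seen, are descriptions, and standing together is not particular to layer 6. Stimulated mouse 6, low in layer 6, had all 10 members of layers 2 to 4 above the run median, with an upper score of 0.42.

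Control 9 showed another pattern, with 2 of 10 upper members but 8 of 11 layer 6 members above the run median. Its Syt17 and Crym, at 58.8 and 85.9 CPM, were below the medians of the late controls, 124.3 and 124.5. Its summed oligodendrocyte CPM of 19860 was the highest of the series, and the part of this in its member values was not tested.

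Other laminar markers that are no members were counted in the same fit, in which 6.05% of all genes were higher and 5.45% lower at an unadjusted p under 0.05. Of 14 for the upper layers 2 were higher in stimulated mice at an unadjusted p under 0.05 and 0 lower, and of 16 for the deep layers 1 was higher and 2 lower. Of the general excitatory neuron markers 2 of 9 were higher (Slc17a7 and Neurod2, log2 fold changes of 0.16 and 0.23). Of the inhibitory neuron markers 5 of 14 were higher (Slc32a1, Sst, Npy, Cck and Calb2). Cck had a mean of 656 CPM in controls, against 119 for Gad2, and whether its RNA came from inhibitory neurons was not tested. None of the 8 astrocyte, 6 microglia, 10 striatal and 4 septal markers passed that threshold, while 3 of 4 thalamic markers, 2 of 3 choroid plexus markers and 1 of 6 vascular markers were lower. Summed thalamic marker CPM ranged from 108.3 to 197.2 in controls and from 108.0 to 137.6 in stimulated mice. The highest control was control 9. Without controls 9 and 11 the control range was 108.3 to 148.5, with 1 of 4 thalamic markers and 1 of 9 excitatory markers (Neurod2) at that threshold. With those 2 left out, the inhibitory (5 of 14), choroid plexus (2 of 3) and vascular (1 of 6) counts were unchanged, beside 8.16% of all genes. The other laminar markers had 3 of 14 for the upper and 2 of 16 for the deep layers, and the striatal ones 1 of 10. None of these genes passed after adjustment, and their part in the member values was not tested.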

How the data were processed

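RNA of bulk ACC tissue from 12 control and 10 stimulated mice was sequenced by the authors (SMARTSeq v4, 5 ng RNA, single-end reads of 50 bases). Per the labels and the methods, reads were trimmed with cutadapt 1.10, aligned to mm10 with STAR 2.5.3a and counted per Ensembl 95 gene with htseq-count 0.6.1p1. The strand setting is not given in the sources used here, and exons that overlap another gene may be counted incompletely. The table deposited by the authors holds raw counts, which were tested here, and normalized values (a signal: counts divided by DESeq2 1.22.1 size factors), used as a check only: recomputed size factors correlated with those of the table at 0.999991. Its columns of the authors' own log2 fold changes, p-values and adjusted p-values were not used. No gene-less row entered the library sizes.

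Groups and library numbers came from the labels. Counts were tested with edgeR 4.0.16 (TMM, quasi-likelihood) on genes that reached 10 counts in 10 or more mice, with the run of library numbers (1 to 11 or 12 to 23) and the group as terms and Benjamini-Hochberg adjustment over all genes tested. The methods of the study use batch and RNA integrity as covariates. The study reports both, but the values are not used here and the labels do not give them, so the run stood in for the batch and RNA integrity was left out. This model was chosen with results of a model with the group alone already known, which called fewer genes at an unadjusted p under 0.05; both counts are given. CPM values are scaled by TMM factors, and log2 CPM has a prior count of 2. Depth was 23090483 to 43668462 counts per mouse, and the mice are taken as separate animals from the labels. Correlations were tested with 100000 permutations within groups, two-sided.

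The members, gene lists and tests were chosen with earlier results of these data known. All members are accounted for by counts and ranges. Values are given for those with an unadjusted p under 0.05 for stimulation, the 5 highest and 5 lowest per kilobase, the 5 largest run differences and 6 paralog pairs, and members outside this rule are named as such. Alternatives were DESeq2 1.42.0, its size factors, limma 3.58.1 (voom with quality weights), other count minimums, the group alone, a replicate block, a surrogate variable (sva 3.50.0), each run alone and, added after seeing the data, leaving out each mouse or controls 9 and 11 and adding the mitochondrial share of counts. Gene coordinates are those of GENCODE M21 on GRCm38 and promoter windows those of RefSeq. The scripts were tested on simulated data.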

Additional observations from a re-analysis of the deposited data

How the results depend on the processing

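No member passed an adjusted p under 0.05 for stimulation in any fit. Over all genes the adjusted count of 0 became 33 with DESeq2, 1 with limma-voom and 1 without controls 9 and 11, and 0 to 1 when each mouse was left out in turn (1 without control 9). The 2015 genes at an unadjusted p under 0.05 became 3687 with no count minimum, 632 with the group alone, 1291 with the replicate block in place of the run, 974 within libraries 1 to 11 and 1430 without controls 9 and 11, and ranged from 1561 to 2489 when 1 mouse was left out. The 6 members at that threshold became 1 with the group alone, 3 with the replicate block, 3 within libraries 1 to 11 and 3 without controls 9 and 11, and ranged from 4 to 8 when 1 mouse was left out, with 0 after adjustment each time. The cause of these changes was not tested, except that a single run holds fewer mice. The interaction of stimulation with the run went from 0 adjusted calls to 2 with DESeq2. The counts for the run kept within 1.5 times under every alternative tried. Zfpm2, Pou3f3 and Pcp4 kept an unadjusted p under 0.05 whichever mouse was left out, and of the 6 only Nr2f1 changed sign in any setting (-0.02 with the replicate block in place of the run). Single mice left out aside, 24 of 35 members changed sign in at least 1 setting, 12 of them when the mitochondrial share of counts was added and 9 with the replicate block. Layer scores and the layer balance, recomputed under 8 alternatives, moved by less than the spread between mice. The replicate numbers do not pair the mice: within group and run the deviations of same-numbered mice correlated from -0.13 to 0.27, above 0.1 in 3 of 10 pairs, and 0 controls matched their own number best. Each group held 10 to 12 mice, with 4 stimulated ones in libraries 1 to 11, and member SEs were 0.06 to 0.33 on the log2 scale. Differences well above 1 SE could therefore go undetected: Zfpm2, at -0.31 ± 0.11 (SE), had an adjusted p of 0.349 in edgeR. At 12 to 13 counts the lowest values of Trh and Nxph4 are limited by depth.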

Other observations

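Among laminar markers outside the member list, Tshz2, a zinc-finger factor of deep-layer neurons, had a log2 fold change of -0.90 ± 0.23 (SE; edgeR unadjusted p = 0.000675) in stimulated mice, which did not pass adjustment over all genes. Without controls 9 and 11, at 28.7 and 25.3 CPM, it was -0.56 (edgeR unadjusted p = 0.00606), and 67.5% of the exon bases of Tshz2 overlap genes on the opposite strand, whose reads cannot be told apart without strand. Wfs1, an endoplasmic reticulum protein of upper-layer neurons, stood at 0.38 ± 0.16 (edgeR unadjusted p = 0.0233) and Nptx2, a secreted pentraxin of excitatory synapses, at 0.29 ± 0.12 (edgeR unadjusted p = 0.0200). Garnl3 stood at -0.15 ± 0.06 (edgeR unadjusted p = 0.0154) and Moxd1 at 0.29 ± 0.13 (edgeR unadjusted p = 0.0303). These 5 are the ones of 30 tested with an unadjusted p under 0.05. Without controls 9 and 11, Wfs1 stood at 0.24 (edgeR unadjusted p = 0.0523), control 9 being its lowest mouse at 65.3 CPM, and Moxd1 at 0.24 (edgeR unadjusted p = 0.0928).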
